A study of Mus musculus with 8 samples.

Results

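The SLC25 carriers are a family of membrane proteins that move metabolites, nucleotides, cofactors and ions across the inner mitochondrial membrane, and the uncoupling proteins belong to the same family. The members were all protein-coding mouse genes whose symbol begins with Slc25a, together with Ucp1, Ucp2 and Ucp3. They numbered 50 of the 30153 genes in the deposited table, and each of the 50 had a row. The rule goes by name and uses no measured value, but the family was chosen with earlier results of these data known.

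Kidneys were taken from aged and adult mice, and the labels give the ages in no other terms. The 4 aged and the 4 adult animals were all C57/BL6 mice that carried haplotype II (Hap-II) of the gene for the human angiotensin receptor type 1, and all of them received a western diet. Each animal gave 1 library of polyadenylated RNA. Because both groups shared the transgene and the diet, the comparison of aged with adult kidneys shows neither the effect of the receptor nor that of the diet. The sources used here give neither the promoter that drives the transgene nor the sex of the animals.

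As background, each carrier folds into a barrel of membrane helices that opens in turn to the cytosol and to the matrix, and most carriers exchange one solute for another. The ADP/ATP carriers and the phosphate carrier supply ATP synthase with its substrates, other members carry the intermediates of the citric acid cycle, and the uncoupling proteins let protons or anions pass. The kidney's tubule cells are rich in mitochondria, since active reabsorption of salt and solutes consumes much ATP.

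The values were TPM, a relative transcript abundance corrected for transcript length that is scaled to a fixed total. Read depth cannot be recovered from this unit and is unknown. The columns totalled 924798 to 950974 TPM, and 10663 to 12293 genes reached 1 TPM in a library. Kidney identity was checked with 7 proximal tubule and 4 thick ascending limb markers, and all of them averaged at least 1 TPM. Transcripts of the 13 mitochondrially encoded genes took 35.9% ± 8.48 of the scale in aged kidneys and 22.8% ± 3.02 in adult kidneys (SD, n = 4 each). Because the scale is fixed, a larger mitochondrial share leaves less room for every nuclear gene, the carriers included. Of the 8 libraries, replicates 3 and 4 of both ages held 4 summed Y-linked transcripts at 34.7 to 50.6 TPM, and replicates 1 and 2 of both ages held them at 0.485 to 2.30 TPM. The labels name no such division. In whole kidney, fewer cells of a type and less RNA per cell cannot be told apart.

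The family ranged over several orders of magnitude. The carriers summed to 2024, 3127, 1417 and 2141 TPM in aged replicates 1 to 4, against 3827, 3039, 1786 and 2334 TPM in adult replicates 1 to 4. The sums of the age groups overlapped, with the highest in adult replicate 1 and the lowest in aged replicate 3. The carriers took 0.218% ± 0.0708 of the scale in aged and 0.275% ± 0.0884 in adult kidneys (SD, n = 4 each). As shares of the column total without the mitochondrially encoded genes, they took 0.369% ± 0.0756 in aged and 0.388% ± 0.116 in adult kidneys. That gap was far smaller than the spread between animals. This base also leaves out the part of the scale that the listed genes did not cover. Summed proximal tubule markers were 533, 1775, 475 and 1370 TPM in aged replicates 1 to 4, and 2134, 765, 496 and 1251 TPM in adult replicates 1 to 4. Adult replicate 1 was highest for these markers and for the carriers, and aged replicate 3 was lowest for both. The part of the tubule cell content in the carriers' levels was not tested.

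Of the 50 carriers, 41 averaged at least 1 TPM over the 8 libraries and entered the tests. The other 9 were Slc25a27, Slc25a47, Slc25a43, Ucp3, Slc25a18, Slc25a41, Slc25a2, Slc25a31 and Slc25a54. Slc25a54 was listed at 0 in all 8 libraries, and Slc25a31, the ADP/ATP carrier of the testis, was above 0 in aged replicate 3 alone, at 0.0333 TPM. Slc25a47, best known from liver, stayed between 0.0437 and 0.735 TPM, and the brain relative of the uncoupling proteins, Slc25a27, between 0.374 and 1.30 TPM. Slc25a41, an ATP-Mg carrier, and Slc25a2, an ornithine carrier, were each above 0 in 2 libraries. Slc25a43, with no settled substrate, did not exceed 0.973 TPM. A handful of genes supplied most carrier RNA. Slc25a5 alone made up 26.7% of the summed mean level, Slc25a5 and Slc25a3 together 46.5%, and the 10 most abundant carriers 81.7%.

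**Figure D1:**
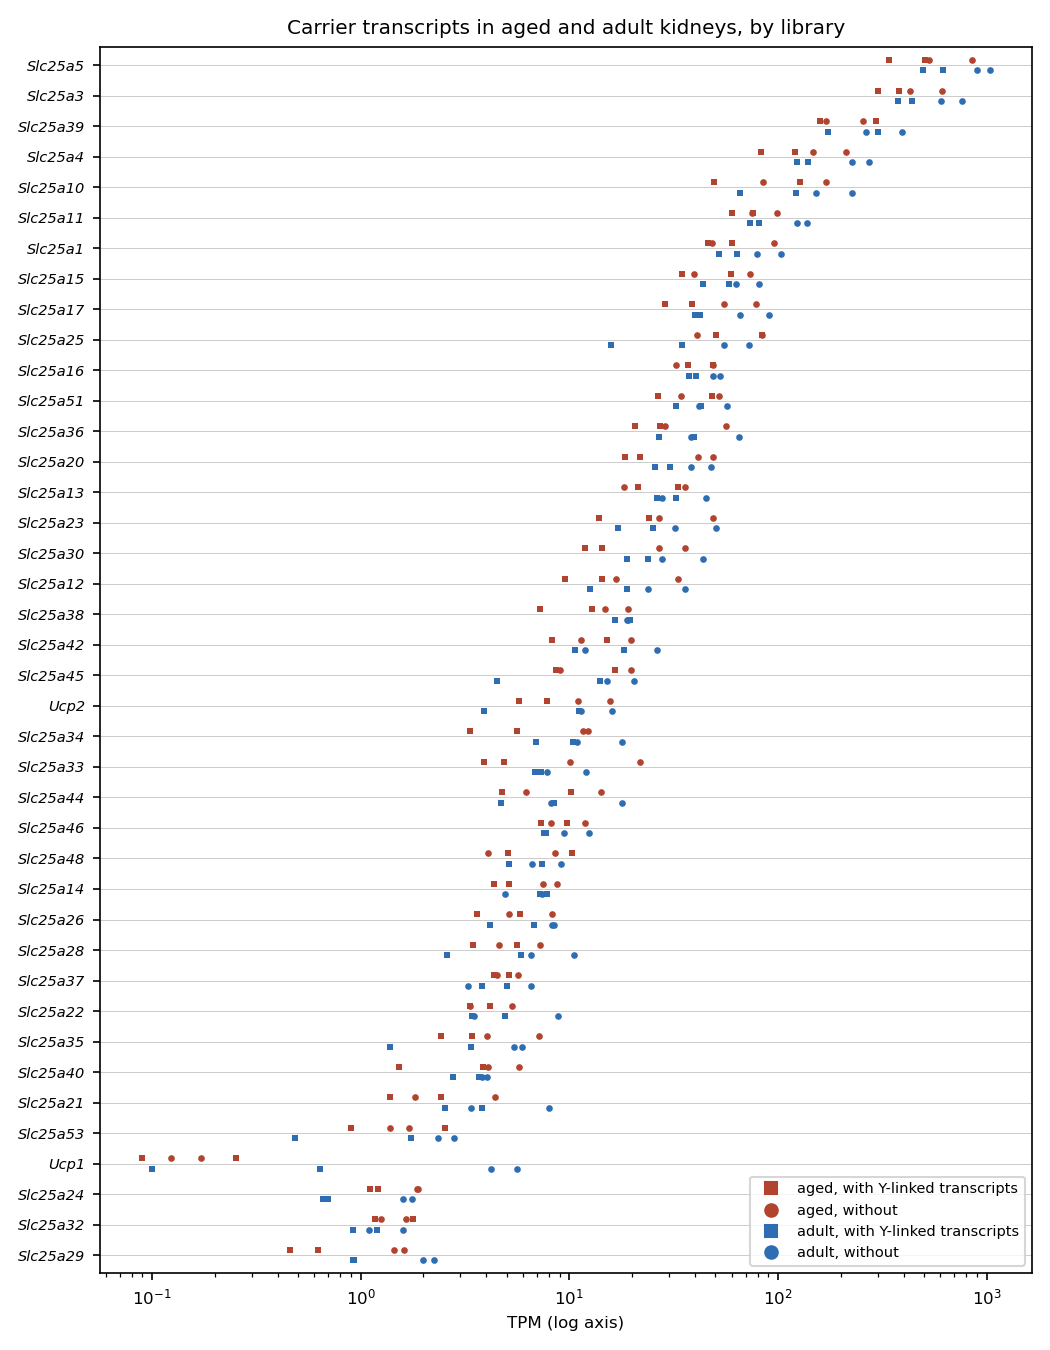
Levels of 40 of the 41 carriers with a mean of at least 1 TPM, from the highest mean down, on a logarithmic axis in TPM. Each point is 1 library, with aged libraries in the upper line and adult libraries in the lower line of each gene, squares for libraries with Y-linked transcripts and circles for those without. The age groups overlapped for 41 of 41 carriers.

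Part of the spread was shared among the carriers. Adult replicate 1 was the highest library for 30 of the 41 tested carriers, and aged replicate 3 was the lowest for 25. Adult replicate 3 was the lowest for another 9. Over the whole table, adult replicate 1 also had the most genes at 1 TPM (12293) and aged replicate 3 the fewest (10663). How often these libraries were highest or lowest among all genes was not counted. As a description, each carrier's share of the carrier sum was compared over the 8 libraries by its coefficient of variation. The 2 largest members, which dominate that sum, varied least, with 6.21% for Slc25a3 and 7.25% for Slc25a5. The median carrier varied by 21.6%, and Ucp1 varied most, by 139%. Slc25a33 followed with 70.4%, which was 28.7% without aged replicate 1, where its share of the sum was 1.08% against 0.182% to 0.410% in the other 7 libraries. Slc25a25 varied by 46.2%, and by 48.8% without aged replicate 1. In TPM itself the median carrier varied by 38.8%, more than in its share. Slc25a25 (44.5%) and Slc25a33 (60.8%) varied less in TPM than in share, as did Slc25a14 and Slc25a16 among others.

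**Figure D2:**
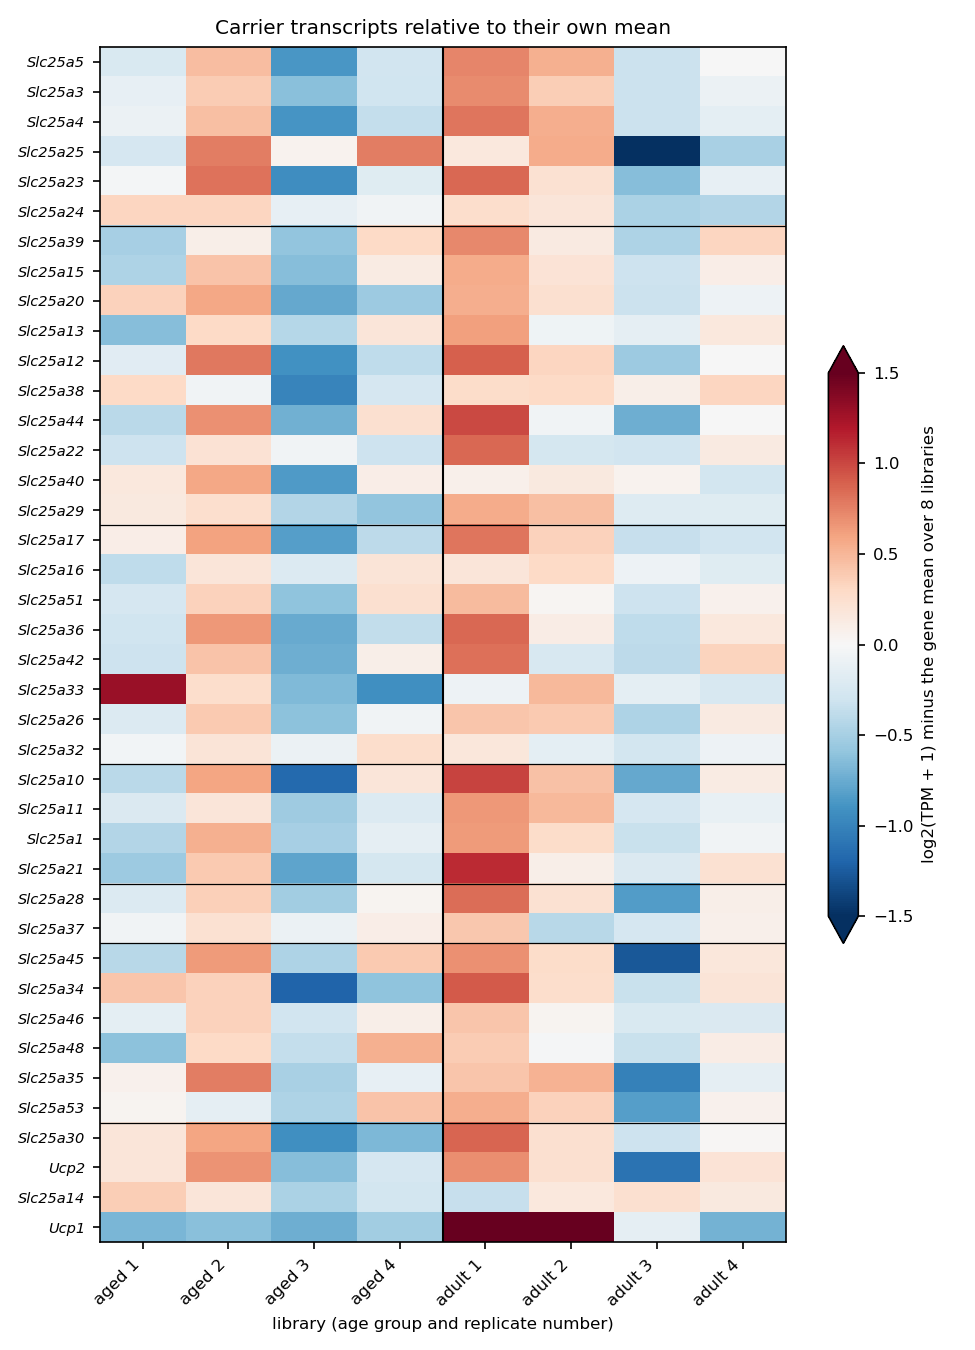
Heat map of log2(TPM + 1) minus each gene's own mean for 40 of the 41 tested carriers, with aged libraries left of adult libraries and genes ordered by role. Over the 41, adult replicate 1 was the highest library for 30 carriers and aged replicate 3 the lowest for 25.

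In the comparison of aged with adult kidneys, tested with limma on log2(TPM + 1), 0 of the 41 carriers passed a Benjamini-Hochberg adjusted p of 0.05. Over all 11796 genes tested the count was also 0 (0%). At an unadjusted p below 0.05 stood 1 of 41 carriers, Ucp1, against 3.39% of all genes. Ucp1 met the filter of 1 TPM only through adult replicates 1 and 2, so its place among the tested genes rests on the group where it was high. The groups overlapped for all 41 carriers, while 2.46% of all genes had groups that did not overlap. Of the log2 fold changes, 35 of 41 were negative (85.4%), against 65% of all genes, with a median of -0.24 for the carriers and -0.11 for all genes. This direction depended on the scale, since 27 of 41 were negative with a median of -0.14 after size-factor scaling, and 16 of 41 with a median of 0.02 after the mitochondrially encoded genes were removed. The medians of all genes were -0.01 and 0.14 under those scalings. Single libraries weighed on it as well, as the carriers' median was -0.06 when either adult replicate 1 or aged replicate 3 was dropped, and -0.44 when aged replicate 2 was dropped. Within the libraries with Y-linked transcripts, 0 of 38 carriers tested passed, against 60 of 11200 genes. Within those without, 0 of 41 passed, against 3 of 12148 genes.

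**Figure D3:**
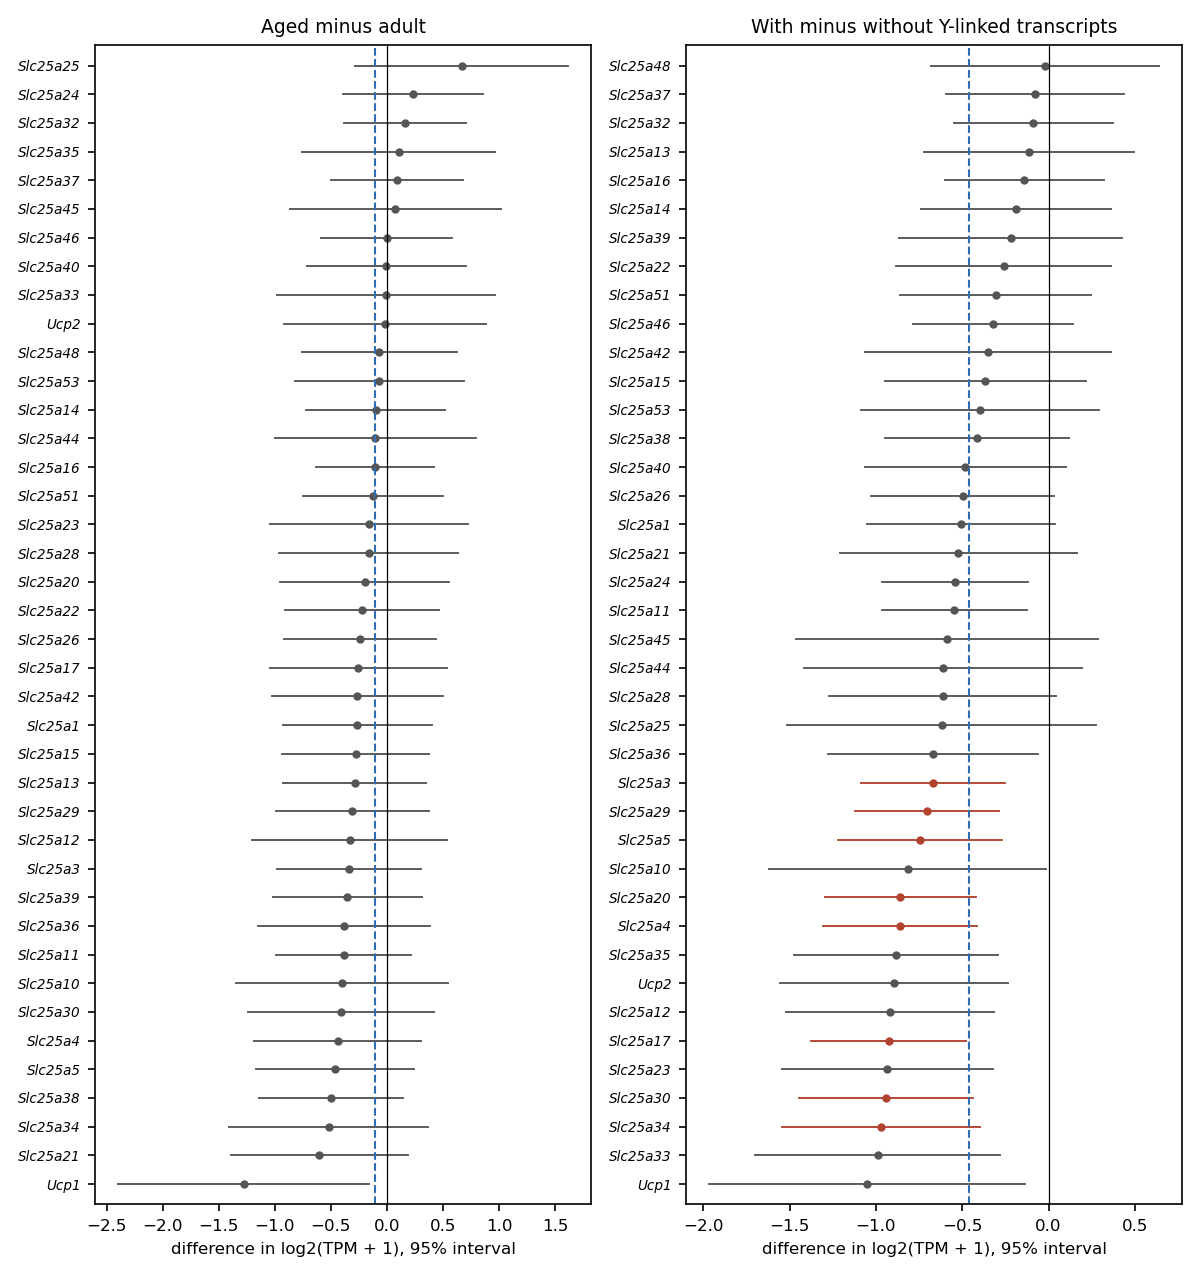
Log2 fold changes of 40 of the 41 tested carriers with 95% confidence intervals from limma, for aged over adult kidneys and for libraries with over libraries without Y-linked transcripts. The dashed line marks the median of all genes and red marks an adjusted p below 0.05, which 0 of the 40 reached for age and 8 reached for the Y-linked division.

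The carriers that feed ATP synthase held ranks 1, 2 and 4 by mean level. Slc25a5, on chromosome X, and Slc25a4, on chromosome 8, exchange cytosolic ADP for matrix ATP. Slc25a5 was at 528, 852, 339 and 507 TPM in aged replicates 1 to 4, against 1033, 896, 494 and 619 TPM in adult replicates 1 to 4. Slc25a4 was at 146, 212, 83.3 and 121 TPM in aged replicates 1 to 4, against 272, 227, 123 and 140 TPM in adult replicates 1 to 4. In both genes adult replicate 1 was highest, aged replicate 3 was lowest, and the age groups overlapped. The log2 fold change was -0.47 ± 0.32 (SE) for Slc25a5 and -0.44 ± 0.34 for Slc25a4 (limma adjusted p = 1.00 each). Slc25a3 carries phosphate into the matrix and averaged 429 ± 131 TPM in aged and 545 ± 175 TPM in adult kidneys (SD, n = 4 each), with the groups overlapping.

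The 250 bases before the start of both ADP/ATP carrier genes, from RefSeq on GRCm38.p6, are printed because the ratio of these genes, given further on, was the steadiest of the ratios examined. They lie at chr8:46211063-46211312 on the minus strand and chrX:36795347-36795596 on the plus strand. Neither held any of the 6 motifs searched on both strands, so no base is in capitals.
Slc25a4: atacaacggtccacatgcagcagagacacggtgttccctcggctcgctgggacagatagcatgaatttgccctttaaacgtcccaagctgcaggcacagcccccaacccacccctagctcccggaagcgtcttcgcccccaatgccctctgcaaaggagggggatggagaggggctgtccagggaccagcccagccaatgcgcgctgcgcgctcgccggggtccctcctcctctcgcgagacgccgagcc
Slc25a5: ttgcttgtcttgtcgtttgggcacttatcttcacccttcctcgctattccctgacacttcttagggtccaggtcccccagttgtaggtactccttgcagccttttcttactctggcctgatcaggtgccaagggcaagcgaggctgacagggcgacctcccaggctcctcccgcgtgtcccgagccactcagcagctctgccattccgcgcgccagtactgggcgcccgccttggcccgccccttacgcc

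The motifs were the palindromic consensus of NRF1, ERR (TCAAGGTCA), the cyclic AMP response element (TGACGTCA), ETS (CCGGAAGT), the E-box (CACGTG) and the TATA box (TATAAA). RefSeq gave 49 such windows for 39 of the 50 carriers, and 32851 windows for all genes. The E-box letters were in 16.3% of carrier windows, which belonged to 7 carriers, and in 6.02% of all windows. The cyclic AMP response element was in 4.08% of carrier windows and 1.55% of all windows. The NRF1 and ERR letters were in 0 carrier windows, and in 0.782% and 0.387% of all windows. The median base content was 57.6% G or C in carrier windows and 52.4% in all windows.

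Slc25a23, Slc25a24 and Slc25a25 exchange ATP-Mg for phosphate under control of cytosolic calcium, which changes the total nucleotide content of the matrix. Slc25a25 had the highest positive age value of any carrier tested. It was at 40.9, 83.7, 50.6 and 83.9 TPM in aged replicates 1 to 4, against 54.9, 72.6, 15.8 and 34.7 TPM in adult replicates 1 to 4. The groups overlapped through adult replicates 1 and 2, and adult replicate 3 was lowest. Its log2 fold change was 0.66 ± 0.44 (SE), which did not pass (limma adjusted p = 1.00), and 0.25 without adult replicate 3. It was 1.44 among libraries with Y-linked transcripts and -0.11 among those without, and the difference between these values, 1.54 ± 0.67, did not pass either (limma adjusted p = 1.00, unadjusted p = 0.0460). Slc25a23 averaged 28.4 ± 14.7 TPM in aged and 31.2 ± 14.2 TPM in adult kidneys, and Slc25a24 averaged 1.52 ± 0.414 TPM in aged and 1.18 ± 0.581 TPM in adult kidneys (SD, n = 4 each).

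Of 3 RefSeq start windows of Slc25a25, the one at chr2:32424067-32424316 on the minus strand held the cyclic AMP response element, shown in capitals, and is printed for that reason.
Slc25a25: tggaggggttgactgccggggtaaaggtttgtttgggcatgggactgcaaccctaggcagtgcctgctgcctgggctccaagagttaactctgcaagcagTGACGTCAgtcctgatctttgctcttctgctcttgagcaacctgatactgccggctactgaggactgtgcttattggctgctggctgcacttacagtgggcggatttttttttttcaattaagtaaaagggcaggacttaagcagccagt

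All 4 carriers of di- and tricarboxylates were tested, and all 4 had negative age values with a median of -0.39, which were 3 of 4 with the mitochondrially encoded genes removed. Slc25a10 exchanges malate or succinate for phosphate and averaged 108 ± 52.1 TPM in aged and 142 ± 67.3 TPM in adult kidneys. Slc25a11, the 2-oxoglutarate/malate carrier of the malate-aspartate shuttle, averaged 77.4 ± 15.9 TPM in aged and 104 ± 31.3 TPM in adult kidneys. The age groups overlapped for both genes, and for Slc25a10 the difference was smaller than the SD of either group. Slc25a1 exports citrate and averaged 62.5 ± 23.0 TPM in aged and 74.5 ± 22.2 TPM in adult kidneys, with a log2 fold change of -0.27 that became 0.02 without the mitochondrially encoded genes. Slc25a21, which carries 2-oxoadipate in lysine and tryptophan breakdown, was at 1.82, 4.39, 1.38 and 2.43 TPM in aged replicates 1 to 4, against 7.95, 3.36, 2.53 and 3.80 TPM in adult replicates 1 to 4. Aged replicate 2 was above adult replicates 2, 3 and 4, so the groups overlapped, and its log2 fold change was -0.60 ± 0.36 (SE, limma adjusted p = 1.00).

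Among the 12 carriers of amino acids, carnitine and glutathione, 10 were tested, and all 10 had negative age values with a median of -0.28, which were 8 of 10 after size-factor scaling and 5 of 10 with the mitochondrially encoded genes removed. Slc25a39 takes glutathione into mitochondria and was the third most abundant carrier, at 220 ± 65.8 TPM in aged and 283 ± 91.6 TPM in adult kidneys (SD, n = 4 each). Its paralog Slc25a40 averaged 3.80 ± 1.74 TPM in aged and 3.57 ± 0.558 TPM in adult kidneys. Slc25a38 brings glycine to the first step of heme synthesis. It was at 19.1, 14.8, 7.23 and 12.8 TPM in aged replicates 1 to 4, against 18.9, 19.2, 16.5 and 19.5 TPM in adult replicates 1 to 4. The adult libraries lay close together and 3 of the 4 aged libraries lay under all of them, but aged replicate 1 lay among them. Its log2 fold change of -0.50 ± 0.29 (SE) did not pass (limma adjusted p = 1.00). Summed red cell markers were 14669 TPM in aged replicate 1 and 934 to 1713 TPM in the other aged libraries, against 2703 to 10655 TPM in adult libraries. The part of blood in the level of Slc25a38 was not tested.

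Slc25a15, the ornithine/citrulline carrier of the urea cycle, averaged 51.7 ± 18.0 TPM in aged and 61.7 ± 15.3 TPM in adult kidneys. Slc25a20 exchanges carnitine for acylcarnitine in fatty acid oxidation and averaged 32.5 ± 14.7 TPM in aged and 35.6 ± 9.68 TPM in adult kidneys. Both differences were smaller than the spread between animals. The aspartate/glutamate carriers Slc25a13 and Slc25a12 also had overlapping age groups, and are described as a pair further on. Slc25a44, a carrier of branched-chain amino acids, averaged 8.83 ± 4.26 TPM in aged and 9.81 ± 5.65 TPM in adult kidneys. The glutamate carrier Slc25a22 averaged 4.04 ± 0.916 TPM in aged and 5.15 ± 2.53 TPM in adult kidneys, while its paralog Slc25a18 did not exceed 0.258 TPM in any library.

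All 9 carriers of cofactors and pyrimidine nucleotides were tested, and 8 of the 9 had negative age values with a median of -0.24, which were 6 of 9 after size-factor scaling and 2 of 9 with the mitochondrially encoded genes removed. Slc25a17 serves peroxisomes rather than mitochondria, where it moves coenzyme A and other cofactors, and averaged 50.4 ± 21.9 TPM in aged and 59.7 ± 23.7 TPM in adult kidneys (SD, n = 4 each). Slc25a51 imports NAD+ and averaged 40.4 ± 12.0 TPM in aged and 43.5 ± 10.2 TPM in adult kidneys. Slc25a16, a gene linked to coenzyme A handling, averaged 41.7 ± 8.24 TPM in aged and 44.8 ± 7.09 TPM in adult kidneys. All 3 differences were smaller than the spread between animals. Slc25a26 imports S-adenosylmethionine and had a log2 fold change of -0.24, and Slc25a42 imports coenzyme A and had one of -0.26. Slc25a32, linked to folate and flavin transport, was the member with a positive value, 0.16 ± 0.25 (SE, limma adjusted p = 1.00). The pyrimidine nucleotide carrier Slc25a33 stood out by 1 library, as it was at 21.8, 10.1, 4.84 and 3.89 TPM in aged replicates 1 to 4, against 7.81, 12.0, 7.33 and 6.82 TPM in adult replicates 1 to 4. Aged replicate 1 was the highest of all, aged replicate 4 the lowest, and the fold change was -0.01 on the log2 scale. Its relative Slc25a36 averaged 33.1 ± 15.8 TPM in aged and 42.5 ± 16.1 TPM in adult kidneys.

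The mitoferrins Slc25a37 and Slc25a28 import iron for heme and iron-sulfur clusters. Slc25a28 averaged 5.23 ± 1.60 TPM in aged and 6.38 ± 3.26 TPM in adult kidneys, and Slc25a37 averaged 4.92 ± 0.620 TPM in aged and 4.67 ± 1.47 TPM in adult kidneys (SD, n = 4 each). The value of Slc25a37 is uncertain, because the annotated gene Gm16867 on the same chromosome holds a transcript whose 31-base words all occur in Slc25a37. Gm16867 was at 2.70, 4.15, 0.217 and 3.84 TPM in aged replicates 1 to 4, against 1.09, 0.0640, 0.878 and 0.453 TPM in adult replicates 1 to 4. Of the aged libraries, 3 were above every adult library and aged replicate 3 was not. Together both genes had 7.65 ± 2.33 TPM in aged and 5.29 ± 1.81 TPM in adult kidneys. The groups overlapped, and the difference of 2.36 TPM did not pass (exact permutation test, two-sided p = 0.200, n = 4 each). For Slc25a37 alone the same test gave p = 0.771 (exact permutation test).

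Ucp1, the proton channel of brown and beige fat, had the most negative age value of the family. It was at 0.123, 0.173, 0.0896 and 0.252 TPM in aged replicates 1 to 4, against 5.64, 4.21, 0.638 and 0.1001 TPM in adult replicates 1 to 4. Adult replicates 1 and 2 stood far above all other libraries, and adult replicate 4 was within the aged range. All aged values lay under 1 TPM, and the mean over all libraries, 1.40 TPM, passed the filter only through adult replicates 1 and 2. The log2 fold change was -1.28 ± 0.51 (SE, 95% confidence interval -2.40 to -0.16) with an unadjusted p of 0.0289 and an adjusted p of 1.00 by limma. Without adult replicate 1 the gene no longer averaged 1 TPM and was not tested, and without adult replicate 2 the value was -0.98.

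Of 8 fat markers, 4 were highest in adult replicate 1 or 2, namely Ucp1, Cidea, Adipoq and Cidec. The other 4 were low throughout and highest in aged libraries, with Lep at 0.288 TPM and Plin1 at 0.0882 TPM in aged replicate 1, Dio2 at 0.176 TPM in aged replicate 2 and Elovl3 at 0.185 TPM in aged replicate 3. Cidea, a lipid droplet protein of brown fat, was at 0, 0.109, 0.0471 and 0 TPM in aged replicates 1 to 4, against 1.37, 1.80, 0.433 and 0.275 TPM in adult replicates 1 to 4. Adipoq, the adiponectin gene, was at 0, 0, 0.315 and 0.194 TPM in aged replicates 1 to 4, against 1.35, 3.49, 0.0732 and 0.264 TPM in adult replicates 1 to 4. The sum of 4 adipocyte markers spanned 0.171 to 0.996 TPM in aged and 0.0732 to 5.99 TPM in adult kidneys, and all 4 had a row. Of the 4, Plin1 was listed at 0 in every library but aged replicate 1. The sum of 4 brown adipocyte markers, Ucp1 among them, spanned 0.249 to 0.457 TPM in aged and 0.414 to 7.22 TPM in adult kidneys. The part of fat tissue in the values of Ucp1 was not tested.

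**Figure D4:**
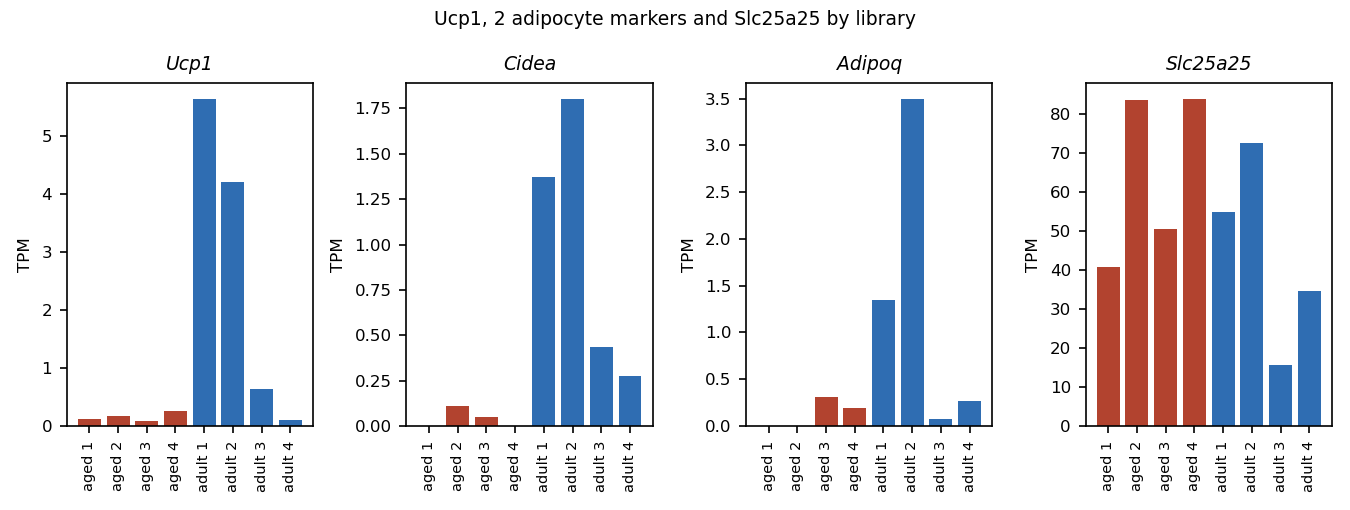
TPM of Ucp1, Cidea, Adipoq and Slc25a25 in each of the 8 libraries, with aged libraries left of adult libraries and axes starting at 0. Adult replicates 1 and 2 are the highest for Ucp1, Cidea and Adipoq, whereas Slc25a25 is lowest in adult replicate 3.

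The start window of Ucp1 at chr8:83290098-83290347 on the plus strand is printed as that of the carrier with the most negative age value. It held none of the 6 motifs in the exact letters searched. Near its end it reads tatata, which the letters searched for the TATA box, TATAAA, do not match.
Ucp1: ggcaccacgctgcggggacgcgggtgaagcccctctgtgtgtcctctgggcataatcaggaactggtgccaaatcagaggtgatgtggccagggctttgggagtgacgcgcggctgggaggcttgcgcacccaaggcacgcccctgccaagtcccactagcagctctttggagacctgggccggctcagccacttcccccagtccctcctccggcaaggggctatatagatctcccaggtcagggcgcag

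The other uncoupling proteins and their relatives were not tested against Ucp1 and are given by level. Ucp2, a broadly expressed relative, was at 11.0, 15.7, 5.76 and 7.83 TPM in aged replicates 1 to 4, against 16.1, 11.4, 3.90 and 11.1 TPM in adult replicates 1 to 4. Its groups overlapped throughout and its log2 fold change was -0.02 ± 0.41 (SE), a value whose sign differed between scalings. Ucp3, known from muscle, did not exceed 0.483 TPM. Slc25a30, described in kidney as a relative of the uncoupling proteins, was the most abundant of this group, at 22.3 ± 11.2 TPM in aged and 28.6 ± 10.9 TPM in adult kidneys (SD, n = 4 each). Slc25a14, a brain relative, averaged 6.42 ± 2.01 TPM in aged and 6.84 ± 1.32 TPM in adult kidneys.

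Of the 8 members in the outer membrane or with no settled substrate, 6 were tested, and their median age value was -0.03 on the deposited scale and 0.07 after size-factor scaling. Slc25a46 acts at the outer membrane in mitochondrial dynamics and averaged 9.25 ± 2.00 TPM in aged and 9.29 ± 2.26 TPM in adult kidneys (SD, n = 4 each). Slc25a45, Slc25a48 and Slc25a53 averaged 13.5, 6.98 and 1.63 TPM in aged kidneys, in that order, against 13.5, 7.07 and 1.85 TPM in adult kidneys. Slc25a34 and Slc25a35 are close in sequence and have no settled substrate. Slc25a34 averaged 8.22 ± 4.45 TPM in aged and 11.5 ± 4.60 TPM in adult kidneys, and Slc25a35 averaged 4.26 ± 2.06 TPM in aged and 4.03 ± 2.08 TPM in adult kidneys. Slc25a35 is uncertain, since 1151 of its 3677 exonic bases overlap Rangrf on the opposite strand, which averaged 15.1 TPM, and the sources used here do not give the strand setting of the quantification.

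Ratios of related carriers do not depend on the TPM scale, and 9 of 10 pairs could be computed in every library. Each was tested by a two-sided exact permutation test, whose smallest possible p is 0.0286. No single pair could therefore reach an adjusted p of 0.05, for which at least 6 of the 9 pairs would have to sit at that smallest p together, and for age 0 of the 9 did. The ratio of Slc25a4 to Slc25a5 was the steadiest, at 0.277, 0.249, 0.245 and 0.238 in aged replicates 1 to 4, against 0.264, 0.254, 0.250 and 0.226 in adult replicates 1 to 4. So the heart and muscle form of the ADP/ATP carrier stood near the same fraction of the widespread form in every animal, with a log2 difference of 0.02 between ages (exact permutation p = 0.771). The ratio of Slc25a34 to Slc25a35 was 3.06, 1.62, 1.37 and 1.64 in aged replicates 1 to 4, against 3.30, 1.85, 4.99 and 3.07 in adult replicates 1 to 4, with a log2 difference of -0.77 (exact permutation p = 0.0571, adjusted p = 0.514). The uncertain level of Slc25a35 bears on that ratio as well. The ratio of Slc25a23 to Slc25a25 was 0.657, 0.583, 0.275 and 0.286 in aged replicates 1 to 4, against 0.918, 0.444, 1.09 and 0.724 in adult replicates 1 to 4, with a log2 difference of -0.85 (exact permutation p = 0.114, adjusted p = 0.514). In both of these pairs, whose members are described above, the age groups overlapped through adult replicate 2. The ratio of the glutathione carriers Slc25a39 and Slc25a40 spanned 41.6 to 104 in aged and 46.7 to 109 in adult kidneys, that of Slc25a33 to Slc25a36 0.143 to 0.761 in aged and 0.120 to 0.314 in adult kidneys, and that of Slc25a10 to Slc25a11 0.820 to 1.72 in aged and 0.896 to 1.65 in adult kidneys. These ranges overlapped widely. The ratio of Slc25a22 to Slc25a18 could not be computed because Slc25a18 was listed at 0 in 3 libraries.

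**Figure D5:**
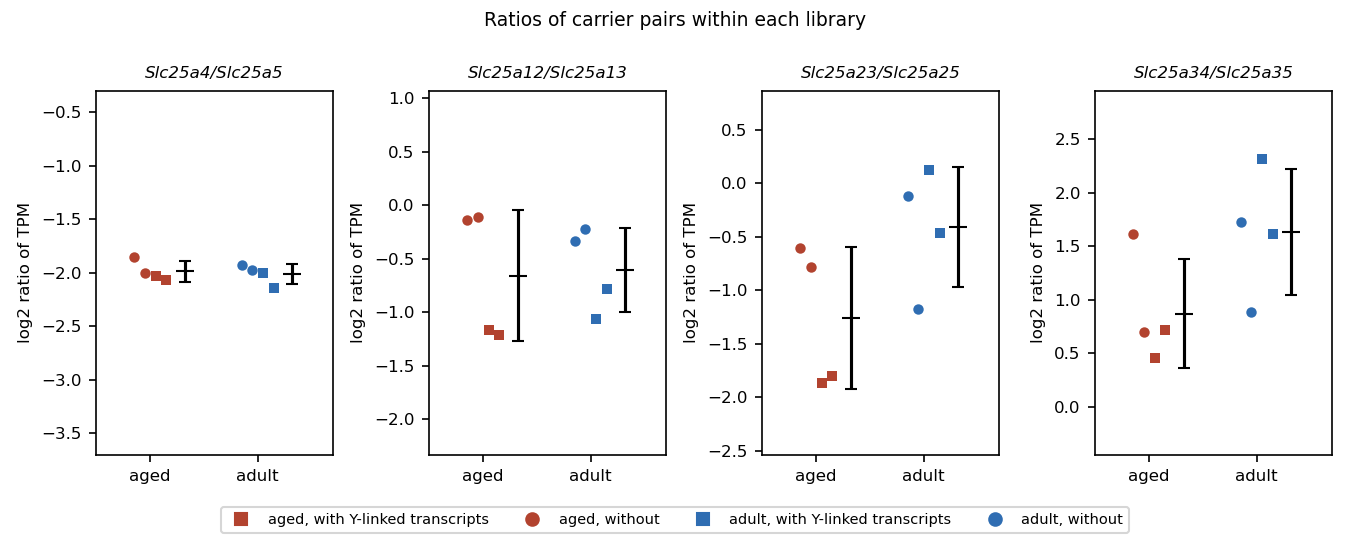
Ratios of 4 carrier pairs on a log2 scale in each library, aged left of adult, with the mean and SD of each group. Squares are libraries with and circles libraries without Y-linked transcripts, and the ranges of Slc25a12 over Slc25a13 overlap between ages but not between those classes.

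The ratio of the aspartate/glutamate carriers separated the libraries by the Y-linked division. These calcium-regulated carriers export aspartate for the malate-aspartate shuttle, and Slc25a12 is best known from brain and muscle while Slc25a13 is best known from liver. Slc25a12 was at 9.54 and 14.3 TPM in aged replicates 3 and 4 and 12.6 and 18.8 TPM in adult replicates 3 and 4, against 16.7 and 33.3 TPM in aged replicates 1 and 2 and 35.8 and 23.8 TPM in adult replicates 1 and 2. Slc25a13 was at 21.4 and 33.1 TPM in aged replicates 3 and 4 and 26.4 and 32.5 TPM in adult replicates 3 and 4, against 18.4 and 36.0 TPM in aged replicates 1 and 2 and 45.2 and 27.8 TPM in adult replicates 1 and 2. Both genes overlapped between the classes, Slc25a12 through aged replicate 1 alone and Slc25a13 broadly. The ratio of Slc25a12 to Slc25a13 was 0.445 and 0.431 in aged replicates 3 and 4 and 0.477 and 0.580 in adult replicates 3 and 4, which held Y-linked transcripts. It was 0.908 and 0.924 in aged replicates 1 and 2 and 0.791 and 0.857 in adult replicates 1 and 2, which did not. The ranges of the ratio did not overlap, with means of 0.483 ± 0.0672 with and 0.870 ± 0.0596 without Y-linked transcripts (SD, n = 4 each). The log2 difference was -0.86 (exact permutation test, two-sided p = 0.0286, the smallest it can give, adjusted p = 0.129 over the 9 pairs). The fitted value of Slc25a12 was -0.92 ± 0.27 (SE, limma adjusted p = 0.0529), against -0.11 ± 0.27 for Slc25a13 (limma adjusted p = 0.745). The ratio of Slc25a15 to Slc25a29, a carrier of basic amino acids, was 73.9 ± 37.8 with and 35.2 ± 7.69 without Y-linked transcripts, with no overlap and the same exact permutation p of 0.0286 (adjusted p = 0.129). This separation was lost when 1 TPM was added to both genes, as the ranges then overlapped and the log2 difference was 0.34 in place of 0.98 (exact permutation p = 0.257), while that of Slc25a12 to Slc25a13 was -0.81, still with no overlap. Slc25a29 was at 0.458 to 2.24 TPM over the 8 libraries. The ratios were compared by this division only after their values had been seen. Among single genes, 22.6% had ranges that did not overlap between the classes. How often ratios of other genes separated was not counted, so the separation cannot be called particular to these pairs.

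The start windows of the aspartate/glutamate carriers are printed for comparison. The ratio of this pair kept ranges that did not overlap between the classes when 1 TPM was added. That of Slc25a12 is at chr2:71367756-71368005 and that of Slc25a13 at chr6:6217174-6217423, both on the minus strand. Slc25a13 held the E-box letters, shown in capitals, and Slc25a12 held none of the 6 motifs.
Slc25a12: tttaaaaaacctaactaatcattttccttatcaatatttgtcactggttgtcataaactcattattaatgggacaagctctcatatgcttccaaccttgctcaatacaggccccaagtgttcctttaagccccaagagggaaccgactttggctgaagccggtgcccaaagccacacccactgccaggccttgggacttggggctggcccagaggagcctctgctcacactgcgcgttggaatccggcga
Slc25a13: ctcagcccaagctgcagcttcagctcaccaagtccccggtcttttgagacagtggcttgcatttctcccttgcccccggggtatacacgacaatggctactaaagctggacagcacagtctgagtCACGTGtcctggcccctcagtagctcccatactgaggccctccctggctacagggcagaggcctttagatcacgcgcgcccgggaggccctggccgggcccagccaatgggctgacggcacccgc

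By the Y-linked division itself, with age in the model, 9 of 41 carriers were lower in libraries with Y-linked transcripts and 0 were higher on the deposited scale, by limma at an adjusted p of 0.05. The share over all genes was 12.4% called, and 11.3% called lower. An unadjusted p below 0.05 was reached by 19 of the 41, against 38.9% of all genes. All 41 carriers had negative values, against 89.2% of all genes, with a median of -0.59 for the carriers and -0.46 for all genes. After size-factor scaling, which moved the median of all genes to 0.00, 26 of 41 carriers were negative with a median of -0.10 and 0 carriers passed, against 5.44% of all genes called and 2.6% called lower. With the mitochondrially encoded genes removed, Slc25a17 and Slc25a20 passed, against 5.99% of all genes called and 4.74% called lower. Dropping any single one of aged replicates 2 and 3 and adult replicates 1 and 3 left 0 carriers past the threshold. Dropping adult replicate 2 or adult replicate 4 left 4, dropping aged replicate 1 gave 12, and dropping aged replicate 4 gave 13. The counts over all genes for these omissions are not given here.

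The 9 included Slc25a17, Slc25a20, Slc25a4, Slc25a30, Slc25a34, Slc25a29, Slc25a3 and Slc25a5, with fold changes of -0.97 to -0.67 on the log2 scale and adjusted p-values of 0.0225 to 0.0492 by limma. Slc25a17 was at 28.7 and 38.9 TPM in aged replicates 3 and 4 and at 40.2 and 42.1 TPM in adult replicates 3 and 4, against 55.3 and 78.9 TPM in aged replicates 1 and 2 and 90.6 and 65.8 TPM in adult replicates 1 and 2. All libraries with Y-linked transcripts were thus below all libraries without. Slc25a20 averaged 24.1 ± 5.16 TPM with and 44.0 ± 4.97 TPM without them (SD, n = 4 each), again with no overlap. Slc25a30, the relative of the uncoupling proteins described in kidney, averaged 17.2 ± 5.24 TPM with and 33.6 ± 8.00 TPM without Y-linked transcripts, and Slc25a29 averaged 0.734 ± 0.232 TPM with and 1.82 ± 0.358 TPM without. Slc25a34 averaged 6.56 ± 2.97 TPM with and 13.2 ± 3.18 TPM without (SD, n = 4 each). In all, 11 of 41 carriers had groups that did not overlap, against 22.6% of all genes. Those 11 included Slc25a4 and Slc25a30 but neither Slc25a3 nor Slc25a5, whose ranges overlapped through aged replicate 1.

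Markers of other cell types were examined by the same division. All 4 thick ascending limb markers were lower in libraries with Y-linked transcripts, with a median log2 fold change of -1.60, and all 4 passed under size-factor scaling too. Of the 7 proximal tubule markers 0 passed, with a median of -0.86, and Slc22a6 had a positive value of 0.58. Of 4 podocyte markers 0 passed (median -0.60). Of 4 endothelium markers 0 passed (median -0.28), and Kdr had a positive value of 0.25. On the deposited scale, Alas2 and Hba-a1 of 6 red cell markers (median -1.77), Avpr2 and Scnn1g of 4 principal cell markers (median -1.06), Pvalb of 3 distal convoluted tubule markers (median -1.34), Atp6v1g3 of 4 intercalated cell markers and C1qa of 4 macrophage markers were also lower by limma. Of these, Scnn1g alone passed after size-factor scaling. On the deposited scale the median was -0.77 for intercalated cell markers and -0.68 for macrophage markers. The mitochondrially encoded share was 33.6% ± 10.5 with and 25.0% ± 6.08 without Y-linked transcripts (SD, n = 4 each). The part of these in the carriers' values was not tested. The division coincides with the replicate numbers, so it cannot be told apart from anything else that follows those numbers. In the limma test of whether the age difference itself differed between the classes, 0 of the 41 carriers passed, against 0.0339% of all genes. Of these interaction values, 15 of 41 were negative, against 38.2% of all genes. An unadjusted p below 0.05 was reached by 2 of the 41, against 2.08% of all genes, and these were Ucp1 at 2.16 ± 0.47 (SE, limma adjusted p = 1.00) and Slc25a25. Of these, Ucp1 was tested only because adult replicates 1 and 2 lifted its mean past the filter.

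Genes that act with the carriers were counted by list. With age, 0 of 17 other mitochondrial transport genes, 0 of 3 outer membrane channels and 0 of 16 genes of the import route passed (limma). Among shuttle enzymes 0 of 6 passed, and among enzymes of carried substrates 0 of 12 (limma). In the import route all 16 values were negative with a median of -0.30 on the deposited scale, but 12 of 16 after size-factor scaling and 10 of 16 with the mitochondrially encoded genes removed. The most negative of them was Timm13, a small chaperone that guides inner membrane proteins across the intermembrane space. It was at 15.6, 17.4, 14.5 and 16.4 TPM in aged replicates 1 to 4, against 26.0, 30.8, 28.3 and 25.3 TPM in adult replicates 1 to 4. Every aged library was below every adult library, with a log2 fold change of -0.75 ± 0.22 (SE). Timm13 did not pass over all genes (limma adjusted p = 1.00, unadjusted p = 0.00514). Age groups that did not overlap were found for 2.46% of all genes. Mtch2, among the 17 transport genes, also separated, at 56.2 to 65.9 TPM in aged and 76.2 to 88.3 TPM in adult kidneys. How many genes of these lists separated was not counted.

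By the Y-linked division, Arg2 and Oat, enzymes that make and use the ornithine carried by Slc25a15, were lower in libraries with Y-linked transcripts. Arg2 was at 2.92 and 2.17 TPM in aged replicates 3 and 4 and at 2.08 and 3.24 TPM in adult replicates 3 and 4, against 54.7 and 47.4 TPM in aged replicates 1 and 2 and 38.4 and 44.6 TPM in adult replicates 1 and 2. Its log2 fold change was -3.72 (limma adjusted p = 7.24e-06), and that of Oat was -2.53 (limma adjusted p = 0.000774). Slc25a15 itself did not pass, at -0.37 ± 0.26 (SE, limma adjusted p = 0.286). Both enzymes also passed under size-factor scaling. The transport genes Sfxn2 and Sfxn3 and the channel Vdac2 were lower on the deposited scale, and 0 of these passed under size-factor scaling. Timm9, a partner of the import chaperones, was higher by 0.79 (limma adjusted p = 0.0239) and passed under size-factor scaling as well.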

How the data were processed

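RNA from 4 aged and 4 adult kidneys was sequenced after pull-down of polyadenylated RNA with a stranded kit, per the labels' protocols. The deposited values were TPM in 1 table. Kallisto, DESeq2 and GRCm38 appear in the submitters' processing notes, with no version or role, and the sources used here do not give the annotation or strand setting behind the TPM. Identifiers were matched to symbols and biotypes in GENCODE M21 on GRCm38. Each column carried the name of its sample.

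Differences were fitted over the whole table by limma (version 3.58.1, R 4.3.3, trended prior variance). The input was log2(TPM + 1) of genes averaging at least 1 TPM. Fold changes on this scale understate the change of low genes. P-values were adjusted over all genes tested (Benjamini-Hochberg, threshold 0.05). The model was run on simulated data in which genes varied independently, so that run does not cover shifts shared by many genes. A second fit divided libraries at 10 TPM of summed Ddx3y, Kdm5d, Eif2s3y and Uty, with age as a covariate, and another tested the interaction. Ratios of pairs were tested by exact permutation over the 70 assignments, two-sided, with p-values adjusted over the 9 pairs. Copies were sought by shared 31-base words, and start windows came from RefSeq.

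The members, the lists and the division by Y-linked transcripts were chosen with earlier results of these data known. Carriers named with values were the uncoupling proteins, the 10 most abundant, those past the threshold or with the 10 smallest p-values, and the members of pairs; the remaining carriers and Gm16867 were named so that each member or copy was accounted for. For 1 tested carrier, values are not reported here.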

Additional observations from a re-analysis of the deposited data

How the results depend on the processing

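TPM keep no depth, so counting error is unknown and low carriers such as Ucp1 carry the least certain values. For age, 0 carriers passed under every alternative run, including both within-class fits and each omission of 1 library, and the median kept its sign except with the mitochondrially encoded genes removed. The same runs called 0 to 60 genes over the whole table, with the 60 found among libraries with Y-linked transcripts. By the Y-linked division, the 9 carriers became 3 with no filter on low values, 0 with size factors, 0 with quantile normalization, 2 with the mitochondrially encoded genes removed and 18 with array weights, and 0 to 13 when 1 library was left out. Over all genes, the 1464 of 11796 called became 762 of 20355 with no filter, 642 with size factors and 636 with quantile normalization. They became 706 of 11783 with the mitochondrially encoded genes removed. Counts over all genes for the other runs are not given here. The median of -0.59 became -0.10 with size factors and -0.14 with quantile normalization. The cause was not tested, beyond the shift of all genes under each scaling.

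Among single genes, the age value of Slc25a25 (0.66) was -0.11 in libraries without Y-linked transcripts. With the mitochondrially encoded genes removed, Slc25a1 had 0.018, Slc25a15 had 0.0028 and Slc25a17 had 0.026. Ucp2 (-0.02) had 0.093 with size factors, 0.083 with quantile normalization, 0.25 with the mitochondrially encoded genes removed, 0.0033 in libraries with Y-linked transcripts, and -0.39 to 0.21 when 1 library was left out.

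Replicate numbers were shared between the ages, but libraries of the same number correlated at 0.04, 0.18, 0.49 and 0.42 and aged replicate 1 correlated best with adult replicate 2, so the numbers were not taken as pairs. With a replicate block, 0 carriers and 0 genes passed, and 916 genes had an unadjusted p below 0.05 against 400 without the block.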
